A study of Mus musculus with 4 samples.

Results

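TRBV19 cells are CD4 T cells whose T cell receptor β chain carries the V segment TRBV19, named Vβ6 in the older mouse nomenclature. They were taken from single-cell libraries of 2 mice as cells with at least 500 detected genes and at most 10% mitochondrial UMIs (unique molecular identifiers, each marking 1 captured transcript), with exactly 1 TRB chain and at most 2 TRA chains in the same mouse's receptor table, and with TRBV19 as the V gene of the TRB chain. Mouse 1 held 182 such cells and mouse 2 held 139, together 321 of 12325 kept cells, or 3.04% and 2.20% of the kept cells of each mouse. They were set against 2768 and 3508 kept cells whose V gene was none of TRBV19, TRBV26 and TRBV23, called other cells here. The remaining 3043 and 2685 kept cells carried TRBV26 or TRBV23 and entered only the comparisons that name them. The V gene alone split the classes; the limits on detected genes, mitochondrial UMIs and number of chains were the same for both, so levels, clonotype sizes, J genes and TRA segments were not used to tell them apart.

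Both classes came from the same animals and shared strain, treatment and time, so no genotype or agent differed between them. Column-purified splenic CD4 T cells of B6.H2g7 donors aged 6 to 8 weeks, a C57BL/6 strain with the H2g7 histocompatibility region of NOD mice, were given to NOD.Rag1null hosts (5000000 cells), which make no T or B cells of their own. On day 14 living cells stained for CD4 and for the β chain of the receptor were sorted from each host's spleen, and 1 expression library and 1 receptor library were made per host. The labels name 2 donors and 2 hosts and do not say whether the donors' cells were pooled, so the hosts may not be independent. The p-values below rest on a spread pooled across genes and do not measure the spread between donors.

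A β chain is assembled in the thymus from a V, a D and a J segment. The V segment encodes the CDR1 and CDR2 loops, which every cell with that V gene shares, while CDR3 spans the junction and differs between clones. Superantigens of some bacteria and of mouse mammary tumour viruses bind receptors by the V part of the β chain, so the cells sharing a V gene can be stimulated or deleted as a group. Foxp3 is the transcription factor that defines regulatory T cells, which restrain other T cells and hold much of their own receptor repertoire apart from that of conventional CD4 cells.

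The shared and the private parts of these receptors are shown because the results below turn on them. Trbv19 (ENSMUSG00000076475) is a gene of 2 exons on the plus strand of chromosome 6, at chr6:41178375-41179048 in the GRCm38 build (GENCODE annotation). The CDR1 and CDR2 sequences were identical in 321 of 321 TRBV19 cells. The CDR3 sequences, 5′ to 3′ from the first to the last codon of the deposited CDR3, belong to the 3 largest TRBV19 clonotypes of each mouse, to the largest one of each mouse in which at least 1 in 2 cells held a Foxp3 UMI, and to the only TRBV19 CDR3 found in both mice. Lower case marks the bases matching the germline V segment at the left and the J segment at the right, and capitals mark the bases between them, which hold the D segment and the added nucleotides.
CDR1: ttcaatcatgataca
CDR2: tcaataactgaaaacgat
Mouse 1, clonotype of rank 1, TRBJ2-1: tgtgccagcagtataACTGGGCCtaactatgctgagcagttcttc
Mouse 1, clonotype of rank 2, TRBJ1-6: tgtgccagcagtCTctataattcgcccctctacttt
Mouse 1, clonotype of rank 3, TRBJ2-1: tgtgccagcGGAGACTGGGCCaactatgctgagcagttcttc
Mouse 1, largest mostly Foxp3-positive clonotype, TRBJ2-7: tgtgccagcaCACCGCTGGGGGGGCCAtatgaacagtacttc
Mouse 2, clonotype of rank 1, TRBJ1-1: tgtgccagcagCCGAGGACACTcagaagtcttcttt
Mouse 2, clonotype of rank 2, TRBJ2-5: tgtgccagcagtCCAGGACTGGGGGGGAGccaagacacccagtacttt
Mouse 2, clonotype of rank 3, TRBJ1-1: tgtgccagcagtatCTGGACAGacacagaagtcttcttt
Mouse 2, largest mostly Foxp3-positive clonotype, TRBJ2-7: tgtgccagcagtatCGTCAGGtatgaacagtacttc
Found in both mice, TRBJ1-3: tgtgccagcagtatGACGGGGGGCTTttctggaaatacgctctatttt

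The receptor call was borne out by the transcripts of the same cells. At least 1 Trbv19 UMI was present in 98.9% and 99.3% of TRBV19 cells of mouse 1 and mouse 2, against 4.70% and 1.74% of other cells. Where a cell had a leading V transcript of at least 2 UMIs, it was Trbv19 in 171 of 175 and 131 of 137 TRBV19 cells, against 5 of 2518 and 0 of 3297 other cells. As for the sort, Cd3e UMIs were found in 98.4% and 100% of TRBV19 cells, against 98.6% and 98.8% of other cells, and Cd4 UMIs in 83.5% and 84.9% of TRBV19 cells, against 81.7% and 83.5% of other cells. Of the 227 and 176 barcodes with a TRBV19 contig, 14 and 7 were not called cells in the expression library, 1 and 1 failed the expression limits, and 30 and 29 were left out because they held 2 TRB chains.

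Median depth was lower in TRBV19 than in other cells in mouse 1 and higher in mouse 2. The median TRBV19 cell held 5176.5 UMIs in mouse 1 and 7279 in mouse 2, against 5751 and 6167 UMIs in other cells. Summed over cells, TRBV19 cells gave 1174564 and 1190634 UMIs, against 18645852 and 25206052 for other cells. The libraries shared 58 barcodes among kept cells, and in 0 of them did the TRB CDR3 agree.

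A smaller share of TRBV19 cells than of the pooled other cells lay in large clones in both mice, and no TRBV19 clone held 30 cells or more. A clonotype is here all cells of a mouse whose TRB chain shares V gene, J gene and the nucleotides of CDR3. The 182 and 139 TRBV19 cells fell into 78 and 98 clonotypes, against 1006 and 1285 clonotypes among other cells, which is 2.33 and 1.42 cells per clonotype in TRBV19, against 2.75 and 2.73 in other cells. The mean difference was -0.86 ± 0.63 cells per clonotype (SD over 2 mice). The largest TRBV19 clonotypes held 24 and 7 cells, against 222 and 366 cells for the largest of the other V genes. No TRBV19 clonotype reached 30 cells, whereas 11 and 12 clonotypes of other cells did, and they held 893 and 1285 cells. Those were 1.09% and 0.934% of the other clonotypes, shares at which 78 and 98 TRBV19 clonotypes could hold none without differing. Clonotypes of 10 or more cells were 3 of 78 and 0 of 98 in TRBV19, against 39 of 1006 and 34 of 1285 in other cells. By share of clonotypes the classes were thus alike in mouse 1.

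The share of cells in large clonotypes separated the classes more than the share in clonotypes of any size. Clonotypes of 10 or more cells held 25.8% of TRBV19 cells in mouse 1 and 0% in mouse 2, against 47.8% and 46.8% of other cells. The mean difference was -34.3 ± 17.5 percentage points (SD, n = 2 mice). In mouse 1 these were 3 TRBV19 clonotypes of 24, 13 and 10 cells. Clonotypes of 2 or more cells held 73.1% of TRBV19 cells in mouse 1 and 43.2% in mouse 2, against 73.5% and 72.9% of other cells, so that TRBV19 was level with other cells in mouse 1 and well below them in mouse 2. No test was run across 2 mice for shares and sizes, since a sign-flip test of 2 pairs cannot give a p below 0.5.

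**Figure D1:**
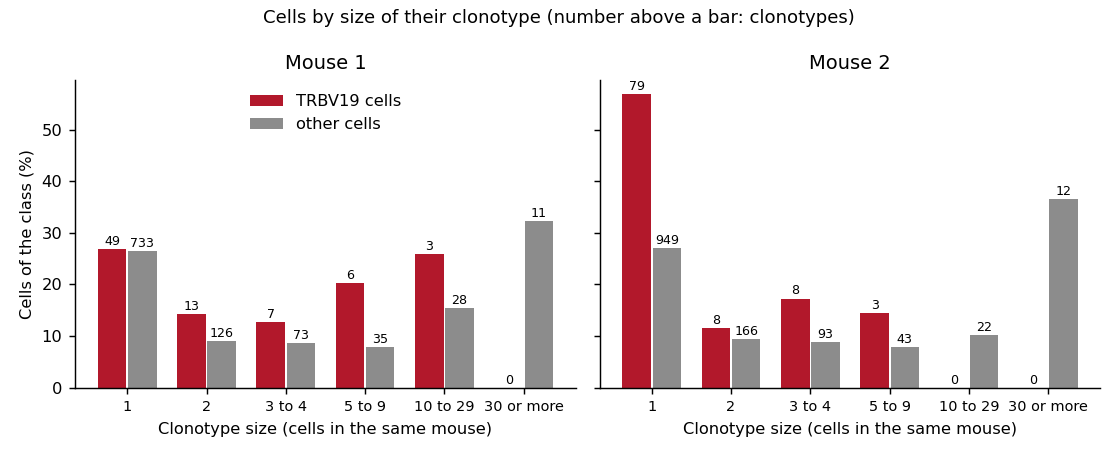
Percentage of TRBV19 cells (red) and of other cells (grey) by the size of their clonotype, for each mouse; the number above a bar counts clonotypes. TRBV19 has no clonotype of 30 or more cells in either mouse, and 79 of its 98 clonotypes in mouse 2 are 1 cell each.

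Clonotype diversity at equal cell numbers went in opposite directions in the 2 mice. Drawing 100 cells without replacement would give 52.7 and 75.0 TRBV19 clonotypes, against 72.3 and 70.5 clonotypes of other cells. Of the clonotypes, 37.2% (exact 95% interval 26.5% to 48.9%) and 19.4% (12.1% to 28.6%) of TRBV19 had 2 or more cells, against 27.1% and 26.1% of others. These intervals cover counting error only. Mouse 1 had more mid-sized TRBV19 clonotypes, with 6 of 5 to 9 cells holding 20.3% of the TRBV19 cells, against 7.95% of other cells in that size range. In mouse 2, 56.8% of TRBV19 cells were alone in their clonotype, against 27.1% of other cells.

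Among the 18 V genes with at least 50 kept cells in each mouse, TRBV19 ranked 13 by its mean share of kept cells (2.62% ± 0.60, SD, n = 2 mice) and 14 by cells per clonotype (1.88 ± 0.65). By mouse it ranked 7 and 17 for cells per clonotype. The lowest ranks belonged to TRBV23 and TRBV26, at 1.47 ± 0.06 and 1.41 ± 0.05 cells per clonotype, and the highest to TRBV29 at 15.6 ± 16.5. The place of TRBV19 in this order thus differed between the mice. Lacking a clonotype of 30 or more cells was not particular to TRBV19. It held for 11 of the 18 V genes in mouse 1 and 6 in mouse 2, and in both mice for TRBV19, TRBV5, TRBV10, TRBV12-1 and TRBV12-2. TRBV12-1 had no cell in clonotypes of 10 or more in either mouse, whereas TRBV29 had 66.7% and 95.8% of its cells there, TRBV14 84.1% and 73.5%, and TRBV31 88.1% and 41.7%.

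Foxp3-positive cells made up about the same share of TRBV19 and other cells in mouse 1 and a larger share of TRBV19 cells in mouse 2. At least 1 Foxp3 UMI was found in 42 of 182 TRBV19 cells of mouse 1 (23.1%, interval 17.2% to 29.9%), against 617 of 2768 other cells (22.3%, 20.8% to 23.9%). In mouse 2 it was found in 44 of 139 TRBV19 cells (31.7%, 24.0% to 40.1%), against 761 of 3508 other cells (21.7%, 20.3% to 23.1%). The difference was 0.79 percentage points in mouse 1, with overlapping intervals, and 9.96 in mouse 2, where the intervals did not overlap. The intervals count every cell as an independent draw, which cells of 1 clonotype are not, so they are too narrow. With 1 cell per clonotype the shares of mouse 2 were 34.7% in TRBV19 and 36.4% in others. The mean of the 2 differences over all cells, 5.37 ± 6.49 percentage points (SD, n = 2 mice), was smaller than its spread. With every cell thinned to 2000 UMIs the shares were 14.3% and 23.2% in TRBV19 cells, against 15.4% and 15.7% in other cells, from which 10 and 0 TRBV19 cells and 65 and 43 other cells with fewer UMIs were left out.

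Free RNA can place a UMI in a cell that does not express the gene, so Foxp3 was also read in sets thought to be mostly without it. Neither set was shown to lack cells that express Foxp3, so neither fixes the background. Clonotypes of 30 or more cells among other cells, a set chosen after their values were seen, held a Foxp3 UMI in 8 of 893 and 16 of 1285 cells, or 0.896% and 1.25%, at median depths of 5362 and 5606 UMIs. Barcodes without a receptor contig and with at least 5 UMIs of the macrophage complement genes C1qa, C1qb and C1qc held one in 2 of 17 and 6 of 24 cases, or 11.8% (interval 1.46% to 36.4%) and 25% (9.77% to 46.7%), at median depths of 7311 and 9753 UMIs. These barcodes also held Ccl5 UMIs in 13 of 17 and 20 of 24 cases, and the source of the T cell transcripts in them was not tested. The TRBV19 shares lay above the level of the large clonotypes and within the wide intervals of the C1q barcodes.

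Counted by clonotype, the order of the classes was turned round. With 1 cell per clonotype, 21 of 78 and 34 of 98 TRBV19 clonotypes were Foxp3-positive (26.9% and 34.7%), against 377 of 1006 and 468 of 1285 of other clonotypes (37.5% and 36.4%). The mean difference was -6.14 ± 6.24 percentage points (SD, n = 2 mice). With every clonotype weighted equally it was -6.34 percentage points. Without clonotypes of 10 or more cells, an alternative chosen after seeing the data, it was -6.65. Clonotypes of 10 or more cells held a Foxp3 UMI in 1 of 47 TRBV19 cells of mouse 1, against 68 of 1322 and 63 of 1640 other cells of mouse 1 and mouse 2.

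Clonotypes of 1 cell held 12 of the 42 Foxp3-positive TRBV19 cells of mouse 1 and 26 of the 44 of mouse 2. Within TRBV19 clonotypes of 2 or more cells, the Foxp3-positive cells were gathered in particular ones. Of the 29 clonotypes of 2 or more cells in mouse 1, 17 had no Foxp3-positive cell, 6 had only Foxp3-positive cells and 6 were mixed. Of the 19 in mouse 2, 11 had none, 8 had only Foxp3-positive cells and 0 were mixed. Among other clonotypes of that size 150 of 273 and 181 of 336 had none, 73 and 111 were wholly positive, and 50 and 44 were mixed. The largest TRBV19 clonotype of mouse 1, with 24 cells and TRAV3N-3, had 1 Foxp3-positive cell, and the clonotypes of 13 and 10 cells had 0. The fourth, whose CDR3 is printed above with TRBJ2-7, had 7 of 8 cells positive.
In mouse 2 the clonotypes of 7, 7 and 6 cells had 0 Foxp3-positive cells, and the largest wholly positive ones were 2 clonotypes of 3 cells, of which the first is printed above.

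**Figure D2:**
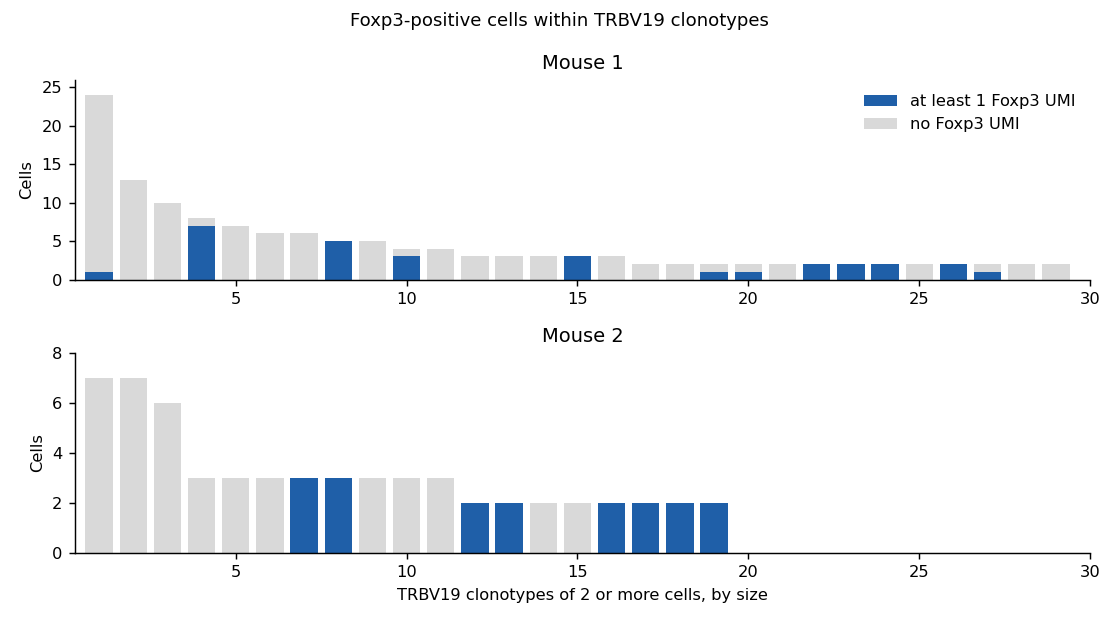
TRBV19 clonotypes of 2 or more cells in order of size (x axis) with their number of cells (y axis, scaled separately for each mouse), split into cells with at least 1 Foxp3 UMI (blue) and cells without (light grey). Most bars are of 1 colour, and the 3 tallest in each mouse hold 1 blue cell or none.

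Among the 18 V genes, TRBV19 had the fourth highest mean Foxp3-positive share, 27.4% ± 6.07 (SD, n = 2 mice), behind TRBV12-1 (81.7% ± 6.66), TRBV12-2 (77.3% ± 15.0) and TRBV5 (37.7% ± 18.6). With 1 cell per clonotype it ranked 11, at 30.8% ± 5.49. In that count it differed from its neighbours TRBV31 (31.4% ± 2.23), TRBV3 (31.0% ± 9.17) and TRBV14 (29.3% ± 2.12) by less than their spread. V genes share cells of the same libraries and are no replicates, so the order is a description.

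**Figure D3:**
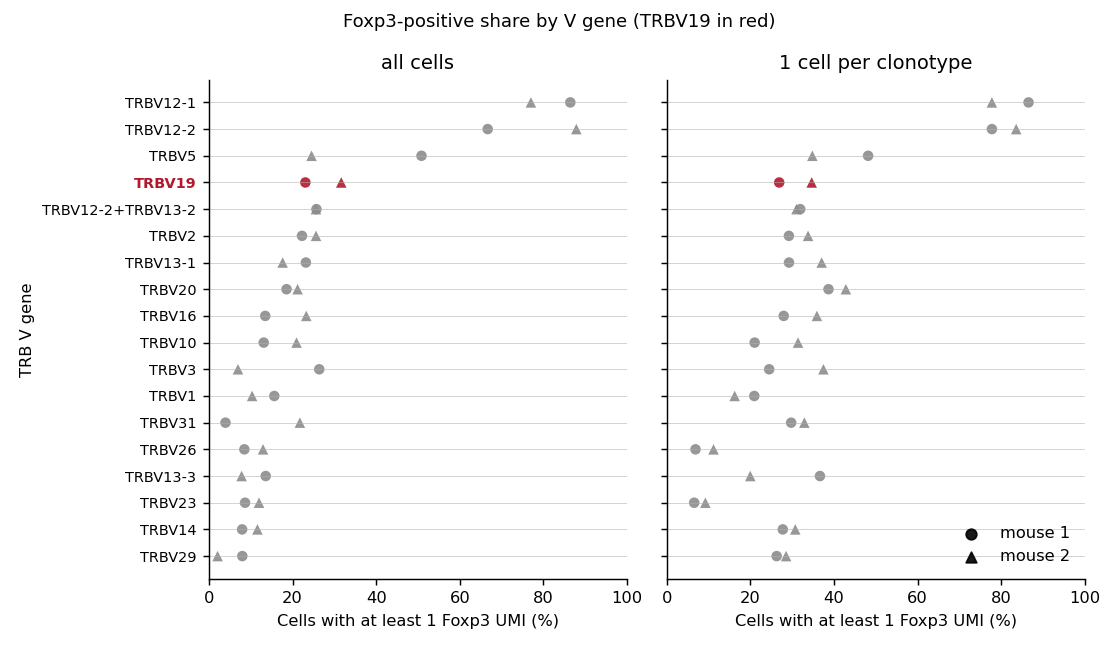
Percentage of cells with at least 1 Foxp3 UMI (x axis) for the 18 V genes (y axis, ordered by the mean over all cells), with circles for mouse 1 and triangles for mouse 2 and TRBV19 in red. Left, all kept cells; right, 1 cell per clonotype, where TRBV19 lies among the middle V genes.

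Expression was compared on UMI counts summed per mouse and class, with edgeR's quasi-likelihood test and the mouse as a block. Of 11879 genes tested, 254 (2.14%) differed at an adjusted p under 0.05, 83 (0.699%) higher and 171 (1.44%) lower in TRBV19 cells, and 1172 had an unadjusted p under 0.05. Each mouse alone gave the sign of the fit for 79 of the higher and 170 of the lower genes. The median log2 fold change over all genes was 0.01. In this fit the spread was pooled wholly across genes (infinite prior degrees of freedom against 1 residual), so a gene's own variation between the mice had no weight in its p. Fold changes are log2 values of TRBV19 over other cells with standard errors (SE), CPM are counts scaled to the total of the same mouse and class, and the values per mouse are differences of log2(CPM + 1).

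The calls depended strongly on how clones were counted and on the spread allowed. Without the mouse as a block 8 genes (0.0673%) were called, and 8 of those were among the 254. With 1 cell per clonotype 34 (0.319%) were called, 20 of them shared with the 254. Without clonotypes of 10 or more cells 23 (0.206%) were called, 15 of them shared. With every V gene as a class of its own 1 (0.0101%) was called, Gzma. In 7 of the 83 higher and 23 of the 171 lower genes, at least 50% of the TRBV19 UMIs of a mouse came from 1 cell.

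Effector chemokines and cytotoxic genes were lower in TRBV19 cells than in the pooled other cells. Of the 16 Th1 effector genes tested, 0 were higher and 7 lower, with a median log2 fold change of -0.54. With every V gene as a class of its own 0 of the 16 were called, with a median of -0.30. Ccl4, a chemokine made by activated T cells, stood at 241 and 291 CPM in TRBV19 cells, against 1267 and 1303 CPM in other cells (log2 -2.28, SE 0.11, adjusted p = 2.0e-88, edgeR). Its neighbour in function Ccl3 stood at 77.5 and 157 CPM, against 539 and 523 CPM (log2 -2.19, SE 0.12). Ifng, the cytokine that defines Th1 cells, stood at 64.7 and 56.3 CPM, against 156 and 140 CPM (log2 -1.29, SE 0.13, adjusted p = 3.2e-19, edgeR). The TRBV19 values of both mice lay below both values of other cells for these genes. The V genes with at least 50 kept cells in each mouse, without TRBV26 and TRBV23, were also summed apart. Among these 16, TRBV19 ranked 15 and 15 from the highest for Ccl4, 13 and 12 for Ccl3 and 12 and 14 for Ifng.

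Ccl5, another chemokine of effector T cells, was the most abundant of the group, at 7757 and 4743 CPM in TRBV19 cells, against 14449 and 14833 CPM in other cells (log2 -1.27, SE 0.13). TRBV19 ranked 11 and 14 of 16 V genes for Ccl5. The other V genes had medians of 9405 and 13739 CPM and reached 32947.5 and 38834 CPM. Of the 12 cytotoxic genes 1 was higher and 8 were lower, with a median of -0.72. With every V gene as a class of its own 1 was higher and 0 lower, with a median of -0.52. Nkg7, a protein of cytotoxic granules, stood at 1246 and 879 CPM, against 2461 and 2583 CPM (log2 -1.26, SE 0.11). The granule protease Gzmk stood at 355 and 123 CPM, against 616 and 421 CPM (log2 -1.21, SE 0.11). Over the other V genes the median for Gzmk was 370 and 398 CPM, and TRBV19 ranked 9 and 15 of 16. The pore-forming protein gene Prf1 had a log2 fold change of -0.86 and the protease gene Gzmb one of -0.59, both past the threshold.

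The cytotoxic gene that was higher rested on 2 cells. Gzma stood at 270 and 244 CPM in TRBV19 cells, against 28.7 and 43.5 CPM in other cells (log2 2.85, SE 0.11). In mouse 1, 314 of its 317 UMIs came from 1 cell of 29521 UMIs, and in mouse 2, 288 of 290 came from 1 cell of 22274 UMIs. Without cells of more than 15000 UMIs the log2 fold change was -3.77. Only 3 TRBV19 cells of each mouse held a Gzma UMI. The summed level of the natural killer cell list, which includes Gzma, was 276 and 251 CPM in TRBV19 cells, against 33.8 and 50.4 CPM in other cells, with 3 of its 6 genes at 0 in TRBV19 cells of either mouse. What those 2 cells are was not tested.

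Most inhibitory receptors and regulators tied to chronic stimulation were lower. Of the 13 genes tested 0 were higher and 10 lower, with a median of -0.91. Without clonotypes of 10 or more cells 0 were called (median -0.43), with 1 cell per clonotype 2 (median -0.37), without the mouse as a block 1, and with every V gene as a class of its own 0. Lag3, an inhibitory receptor for class II molecules, stood at 186 and 189 CPM in TRBV19 cells, against 438 and 412 CPM in other cells (log2 -1.18, SE 0.11, adjusted p = 6.8e-25, edgeR). Pdcd1, which encodes PD-1, stood at 193 and 140 CPM, against 318 and 358 CPM (log2 -1.02, SE 0.11). Tigit, an inhibitory receptor, had a log2 fold change of -0.59 (SE 0.10), and Tox, a transcription factor of chronically stimulated T cells, one of -0.76 (SE 0.10). The other lower members were Havcr2, Cd160, Entpd1, Eomes, Prdm1 and Nr4a2, between -0.54 and -1.39.

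Of 15 genes induced by receptor signalling 1 was higher, 5 were lower and 9 were not called, with a median of -0.31. Without the largest TRBV19 clonotype of each mouse, a fit in which 2.29% of genes were called, 3 were higher and 4 lower, and with every V gene as a class of its own 0 were called. The early response gene Egr1 stood at 44.3 and 67.2 CPM in TRBV19 cells, against 90.0 and 92.9 CPM in other cells (log2 -0.71, SE 0.14). Egr2, which restrains activated T cells, stood at 14.5 and 12.6 CPM, against 35.7 and 27.1 CPM (log2 -1.21, SE 0.25). Icos, a costimulatory receptor, was the higher one, at 351 and 338 CPM, against 256 and 261 CPM (log2 0.42, SE 0.10). Of the anergy genes, 0 of 12 were higher and 2 were lower, Egr2 and the ubiquitin ligase gene Cblb (log2 -0.37, SE 0.11).

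Of the 14 follicular helper genes tested 1 was higher, Icos, and 5 were lower, with a median of -0.33. Without clonotypes of 10 or more cells 0 were higher and 2 lower, with a median of -0.08. With 1 cell per clonotype 0 of 13 were higher and 1 was lower, with a median of 0.01. Without the mouse as a block 0 were called, and with every V gene as a class of its own 0 of 13 were. Il21, the cytokine by which these cells help B cells, stood at 26.4 and 19.3 CPM in TRBV19 cells, against 38.6 and 45.9 CPM in other cells (log2 -0.88, SE 0.20). Sostdc1, a secreted protein of follicular helper cells, was lower in the fit (log2 -0.83, SE 0.14), but by mouse its difference was 0.05 in mouse 1 and -2.40 in mouse 2. Its level was 93.7 and 19.3 CPM in TRBV19 cells, against 90.3 and 106 CPM in other cells, so its call rested on mouse 2. Cd40lg, the ligand by which helper cells activate B cells and a gene outside these lists, was higher at 86.8 and 107 CPM, against 61.5 and 80.3 CPM (log2 0.45, SE 0.13, adjusted p = 0.025, edgeR). Cd40lg was not called with 1 cell per clonotype or without clonotypes of 10 or more cells. Nor was it called without the mouse as a block or with every V gene as a class of its own.

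Of the 14 genes of naive and quiescent T cells tested 6 were higher, 0 lower and 8 not called, with a median of 0.35. Without clonotypes of 10 or more cells 0 were called, with a median of 0.03, and with 1 cell per clonotype 1 was called, lower, with a median of -0.03. Igfbp4, a binding protein for insulin-like growth factors found in naive CD4 cells, stood at 141 and 260 CPM in TRBV19 cells, against 103 and 139 CPM in other cells (log2 0.71, SE 0.10, and 0.08 without clonotypes of 10 or more cells). Tcf7, a transcription factor of naive and memory cells, stood at 378 and 387 CPM, against 246 and 274 CPM (log2 0.56, SE 0.10). Il7r, the receptor for the survival cytokine IL-7, stood at 146 and 254 CPM, against 105 and 164 CPM (log2 0.57, SE 0.10). Lef1 and Satb1 were also called, while Ccr7, a lymph node homing receptor, had a log2 fold change of 0.40 and was not.

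Of 20 proliferation genes tested 5 were higher, 0 lower and 15 not called, with a median of 0.24. Mki67, the gene of the cycling marker Ki-67, stood at 276 and 206 CPM in TRBV19 cells, against 190 and 130 CPM in other cells (log2 0.60, SE 0.10). Mki67 UMIs were found in 39 of 182 and 28 of 139 TRBV19 cells, against 526 of 2768 and 580 of 3508 other cells. Ube2c, which marks proteins for breakdown at the end of mitosis, had a log2 fold change of 0.66 (SE 0.11), with 57.2% of its TRBV19 UMIs in mouse 2 from 1 cell. Top2a, Rrm2 and Ccnb1 completed the called members. Without cells of more than 15000 UMIs, a fit in which 1.34% of genes were called, 0 of the 20 were. With 1 cell per clonotype 0 were called (median 0.16), and in cells without a Foxp3 UMI 0 were called and the median was -0.11.

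Of the 11 tested members of the Th2 and Th17 list 2 were higher and 0 lower, the chemokine receptors Ccr4 and Ccr6, which also belong to the homing list of 16 genes (2 higher and 1 lower). Ccr4, which guides cells to skin and lung, stood at 34.9 and 41.2 CPM in TRBV19 cells, against 17.2 and 20.4 CPM in other cells (log2 1.02, SE 0.20). Ccr6, the receptor for CCL20, stood at 15.3 and 37.8 CPM, against 10.7 and 16.2 CPM (log2 0.98, SE 0.23), so that the TRBV19 value of mouse 1 fell below the other-cell value of mouse 2. Without the largest TRBV19 clonotype of each mouse the list had 1 higher and 2 lower, with a median of -0.12, and Ccr6 was not called, at 0.61 (adjusted p = 0.35, edgeR). With 1 cell per clonotype 0 of the list were called, with a median of -0.17. Among the genes with the largest increases outside the lists was Prrg1 at 22.99 and 23.5 CPM, against 9.22 and 9.09 CPM (log2 1.35, SE 0.27). Prrg1 was also called with 1 cell per clonotype, at 1.23. It was not called without clonotypes of 10 or more cells (1.08, adjusted p = 0.061, edgeR). The same held with every V gene as a class of its own (1.47, adjusted p = 0.080, edgeR) and without the mouse as a block (1.35, adjusted p = 0.15, edgeR).

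Regulatory T cell genes did not separate the classes as a group. Of 14 tested 0 were higher and 1 was lower, Tigit, with a median of 0.08. Foxp3 stood at 132 and 166 CPM in TRBV19 cells, against 137 and 144 CPM in other cells (log2 0.09, SE 0.11, adjusted p = 0.91, edgeR). The values of mouse 1 and mouse 2 lay on either side of 0, at -0.05 and 0.21. Il2ra, the interleukin-2 receptor α chain, had a log2 fold change of 0.08 (SE 0.16), Ctla4, an inhibitory receptor of regulatory cells, one of 0.11 (SE 0.10), and Ikzf2, which encodes Helios, one of -0.005 (SE 0.098). Ikzf2 was called lower with 1 cell per clonotype, at -0.60, and 4 of the 14 genes were called lower, with a median of -0.35, where 0.263% of all genes were.

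The remaining lists held 3 calls or fewer each. Interferon response genes had 0 of 15 called, with a median of -0.08, and Isg15 had a log2 fold change of -0.43 (adjusted p = 0.081, edgeR). Glycolysis genes had 0 of 13 called, with a median of 0.05. Of the 14 apoptosis genes 3 were lower, where 1.44% of all genes were, among them Fasl, the death ligand (log2 -0.85, SE 0.18). None of the 14 was called without clonotypes of 10 or more cells or with 1 cell per clonotype. The same held without the mouse as a block and with every V gene as a class of its own. Of the 11 tested dissociation stress genes 1 was higher, Jun (log2 0.57, SE 0.14).

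A few lower genes had too few UMIs in TRBV19 cells for a firm size. The uncharacterised gene 5830405F06Rik had 2 UMIs in TRBV19 cells of each mouse, against 517 and 568 in other cells, a ratio of 0.061 (interval for counting error 0.0074 to 0.22) in mouse 1 and 0.075 (0.0090 to 0.27) in mouse 2. Its log2 fold change was -3.89 in the pooled fit and -0.58 with every V gene as a class of its own. The low level was not particular to TRBV19, which ranked 8 and 11 of 16 V genes at 1.70 and 1.68 CPM. Over the other V genes the median was 0.94 and 3.06 CPM and the highest value 536 and 581 CPM. Spp1, which encodes the secreted protein osteopontin, had 1 and 56 UMIs in TRBV19 cells, of which 82.1% in mouse 2 came from 1 cell, against a level of 60.0 and 110 CPM in other cells. Its log2 fold change was -1.88 (SE 0.18), and by mouse -5.04 and -1.21. For Spp1 TRBV19 ranked 16 and 5 of 16 V genes, with medians of 20.1 and 12.6 CPM over the others.

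**Figure D4:**
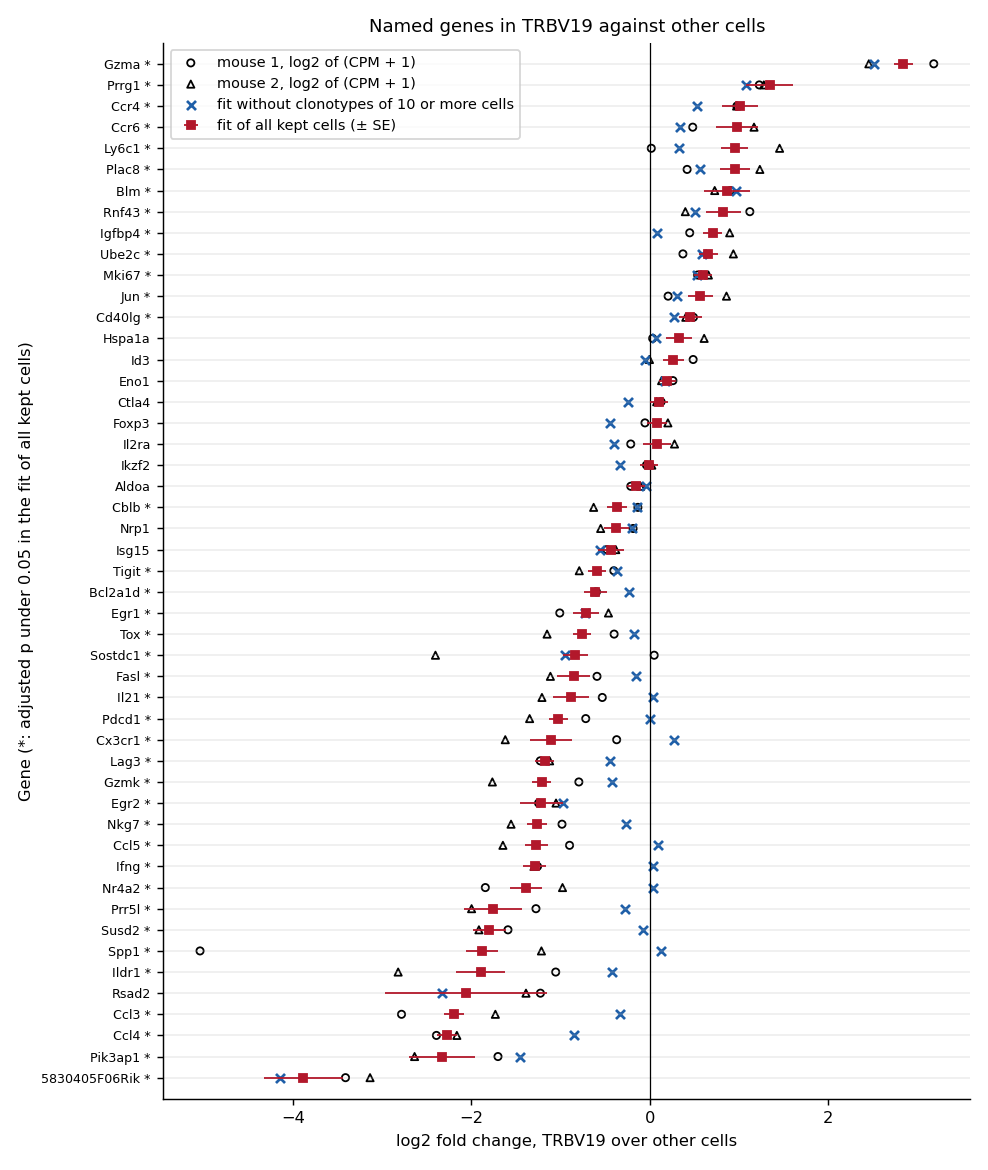
log2 fold change of TRBV19 over other cells (x axis) for 49 named genes (y axis): red squares with SE from all kept cells, open circles and triangles for mouse 1 and mouse 2, blue crosses from the fit without clonotypes of 10 or more cells. For Ccl5, Ifng, Pdcd1 and Nr4a2 the blue cross lies at or near 0 while the red square lies below -1.

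Most of the other cells' UMIs of several of the lower genes came from large clonotypes. Of the Ccl5 UMIs of other cells, 83.1% and 85.2% came from clonotypes of 10 or more cells, which hold 47.8% and 46.8% of those cells. For Ifng the shares were 77.4% and 80.8%, for Nkg7 71.7% and 77.1% and for Pdcd1 68.9% and 77.2%. Without those clonotypes in either class the log2 fold change of Ccl5 was 0.09, that of Ifng 0.03, that of Pdcd1 0.00 and that of Nkg7 -0.27, none of them called. That fit also left out 47 TRBV19 cells of mouse 1. Whether clonotype size accounts for the lower levels was not tested. Of the Th1 effector list 2 genes were then lower (median -0.18) and of the cytotoxic list 0 (median -0.01). Of the 25 lower genes with values in the plot of named genes 4 kept their call, Ccl4 (-0.85), Egr1 (-0.72), Sostdc1 and 5830405F06Rik, and 18 remained below 0. Of the 13 higher ones 3 kept it, Gzma, Mki67 (0.53) and Ube2c (0.59), and 13 remained above 0.

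With 1 cell per clonotype, 7 of the 25 lower genes kept their call, among them Ccl4 (-1.19), Nkg7 (-0.56), Lag3 (-0.75), Tigit (-0.53) and Egr1 (-0.74). Of the 13 higher ones 3 did. Ccl4 and Egr1 were thus called lower under both ways of limiting the clones. With every V gene as a class of its own, neither was called, at -2.14 (adjusted p = 0.53, edgeR) for Ccl4 and -0.73 (adjusted p = 0.64, edgeR) for Egr1.

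Shares of cells with a UMI were therefore also given within clonotypes of like size. They were not thinned to equal depth. In clonotypes of 1 cell the median depth was 5578 and 7876 UMIs in TRBV19 cells, against 6552 and 7341 in other cells. Among clonotypes of 1 cell, Ccl5 UMIs were found in 77.6% and 74.7% of TRBV19 cells, against 72.2% and 61.4% of other cells. Ifng UMIs were found there in 16.3% and 15.2% of TRBV19 cells, against 9.96% and 8.54% of other cells. For both genes the TRBV19 shares were higher in both mice, the reverse of the order over all cells, but the exact intervals of the classes overlapped. In clonotypes of 2 to 9 cells the order was another: Ccl5 UMIs were found in 80.2% and 63.3% of TRBV19 cells, against 83.6% and 72.7% of other cells, and Ifng UMIs in 20.9% and 23.3%, against 24.4% and 20.9%, again with overlapping intervals. Over all cells Ifng UMIs were found in 22.0% and 18.7% of TRBV19 cells, against 34.4% and 34.9% of other cells.

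In clonotypes of 10 or more cells, which TRBV19 had in mouse 1 alone, Ifng UMIs were found in 14 of 47 TRBV19 cells (29.8%), against 705 of 1322 other cells (53.3%), and Gzmk UMIs in 57.4%, against 71.1%. Cd40lg UMIs were found there in 44.7% of TRBV19 cells, against 22.2% of other cells, of which the clonotype of 24 cells gave 14. These are cells of 3 clones of 1 mouse, so they do not speak for TRBV19 in general. At both smaller sizes and in both mice the Foxp3-positive share was smaller in TRBV19 than in other cells, with intervals that overlapped. For clonotypes of 1 cell it was 24.5% and 32.9% in TRBV19, against 38.6% and 36.4%, and for 2 to 9 cells 29 of 86 and 18 of 60 TRBV19 cells, against 37.3% and 38.4% of other cells.

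**Figure D5:**
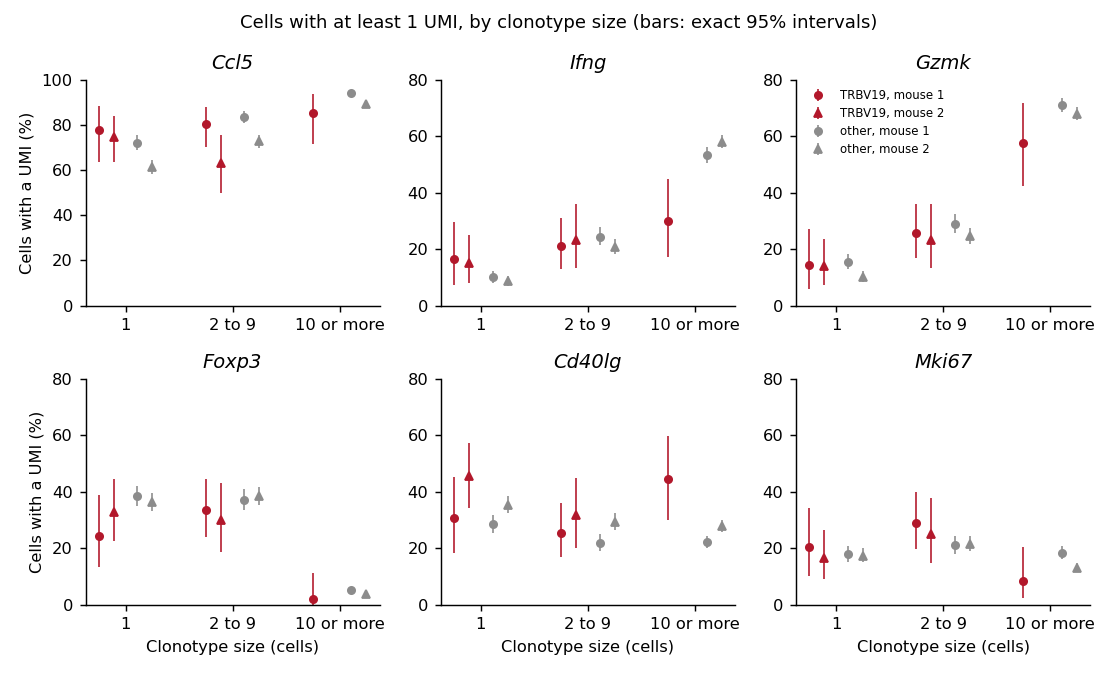
Percentage of cells with at least 1 UMI of 6 genes (y axis) by clonotype size (x axis), TRBV19 in red and other cells in grey, circles for mouse 1 and triangles for mouse 2, with exact 95% intervals for counting error. Among other cells the Ifng and Gzmk shares are highest and the Foxp3 share lowest at 10 or more cells, a size that TRBV19 reaches in mouse 1 alone.

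Cells without a Foxp3 UMI were compared on their own. Of 11437 genes tested 148 (1.29%) differed, 44 higher and 104 lower, and 129 of them were among the 254. Among Foxp3-positive cells alone, 42 and 44 in TRBV19, a comparison chosen after seeing the data, edgeR called 0 of 9959 genes (0%), with 575 at an unadjusted p under 0.05. DESeq2 was not run on that subset. The difference between these comparisons was not tested.

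Summed levels of the marker lists of other cell types differed between the classes in several cases. The natural killer sum given above was mostly Gzma. Of its 276 and 251 CPM in TRBV19 cells, Gzma gave 270 and 244, almost all from 1 cell per mouse. In other cells Gzma gave 28.7 and 43.5 of 33.8 and 50.4 CPM. The summed level of the 9 myeloid markers was 23.8 and 58.8 CPM in TRBV19 cells, against 38.1 and 41.6 CPM in other cells. In TRBV19 cells of either mouse 2 of them were at 0. Of the 7 tested, 0 were higher, 1 was lower, Cd68 (log2 -1.12, SE 0.29), and 6 were not called. The median log2 fold change of the 7 was 0.64, and by mouse -0.64 and 0.71. The summed level of the 8 B cell markers was 266 and 328 CPM, against 207 and 220 CPM, with 5 and 4 of them at 0 in TRBV19 cells. Almost all of it was Ighm, at 255 and 317 CPM, against 201 and 212 CPM (log2 0.47, SE 0.10), which was called higher. The 4 γδ T cell markers summed to 0.851 and 0 CPM in TRBV19 cells, against 42.6 and 7.50 CPM in other cells, and the 6 erythroid markers to 5.11 and 2.52 CPM, against 9.98 and 11.0 CPM. The part of RNA from such cells in any result was not tested.

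TRBJ2 segments were used by 60 of 78 and 60 of 98 TRBV19 clonotypes (76.9% and 61.2%), against 64.9% and 66.9% of other clonotypes, so the order was opposite in the 2 mice. CDR3 was shorter in TRBV19 clonotypes in both mice, by less than the SD among clonotypes. It averaged 14.0 ± 1.29 and 13.7 ± 1.22 codons in TRBV19 clonotypes (SD, n = 78 and 98 clonotypes), against 14.2 ± 1.45 and 14.1 ± 1.496 in others (n = 1006 and 1285). TRBJ1-2 was rarer in TRBV19 clonotypes in both mice, at a mean of 1.15% ± 0.19 (SD, n = 2 mice), against 5.12% ± 1.62. TRBJ1-4 was more common in both, at 9.72% ± 0.76, against 6.53% ± 0.23. They are 2 of 12 J segments compared, chosen after their values were seen and given without a test.

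The bases between the germline V and J matches numbered 10 at the median in mouse 1 (range 2 to 19) and 9 in mouse 2 (0 to 18). The sequences printed above cover this range from the 2 bases of the clonotype of rank 2 in mouse 1 to the 17 bases of that of rank 2 in mouse 2. Cells of 1 TRBV19 clonotype mostly carried the same TRA chain or pair of chains. Clonotypes with a TRA chain in at least 2 cells were counted, and a cell with 2 TRA chains was taken by its pair. The most common chain or pair was that of 121 of 125 and 55 of 59 cells with a TRA chain. These were 96.8% and 93.2%, against 97.0% and 98.2% for other clonotypes.

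A second TRA chain was found in 8.79% and 17.3% of TRBV19 cells, against 11.5% and 9.09% of other cells, again in opposite order. TRAV use was spread over many families, with TRAV7 at 18.0% ± 10.6 of TRBV19 clonotypes (SD, n = 2 mice), against 14.5% ± 0.50 of others, and TRAV14 at 15.3% ± 0.63, against 13.9% ± 1.62. TRAV16 was used by 2.25% ± 1.33, against 5.79% ± 0.98, and was rarer in both mice. These were 3 of 20 families compared, with no test.

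One TRBV19 CDR3 nucleotide sequence occurred in both mice, 1 of 78 and 1 of 98, which is 1.28% and 1.02% of the distinct sequences of each mouse. Among other cells 25 were shared, 2.49% and 1.95% of those of each mouse. The shared TRBV19 sequence, with TRBJ1-3, was found in 1 cell per mouse, and both cells carried the same TRA CDR3 with TRAV4N-3. The cell of mouse 1 held a Foxp3 UMI and the cell of mouse 2 held none. Of the 25 shared sequences of other cells 18 also had the same leading TRA chain or pair of chains. How these receptors came to be in both mice was not tested, and the labels do not say whether donor cells were pooled.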

How the data were processed

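Per the submitters' processing notes, Cell Ranger 7.0.1 made the files, and mm10 and GRCm38 are named as genome builds; the labels' protocols give the 5′ v2 chemistry. The authors deposited raw UMI counts per gene and barcode, not normalized, and receptor tables with read and UMI counts per contig. The expression matrices held 9996 and 9733 barcodes and 70092822 and 75940181 UMIs, and 5993 and 6332 cells were kept. The counts of a class were added up within a mouse (4 sums), without T cell receptor segments, and edgeR 4.0.16 in R 4.3.3 compared the sums (TMM factors, filterByExpr, quasi-likelihood F test, Benjamini-Hochberg adjustment over all tested genes). The mouse was a block because both classes come from the same animals. DESeq2 1.42.0 was an alternative. The edgeR step was tested on simulated counts. No cells were clustered, and doublets were limited only by the rule of exactly 1 TRB chain. Intervals are exact Clopper-Pearson 95% intervals (scipy 1.17.1). The genes named are the 8 with the largest increase and the 8 with the largest decrease among called genes of equal sign in each mouse and a mean of 20 CPM or more in either class, 2 members per T cell list by smallest p (15 lists), and a fixed set of further genes. Some called members of a list, and Ccr7 and Ighm, are named besides; a few genes are not reported here. The cells compared, the lists and the rules were chosen with earlier results of these data known. The other alternatives replaced the size factors, the filter on low counts, the cells and the definition of a clonotype.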

Additional observations from a re-analysis of the deposited data

How the results depend on the processing

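The 2 mice limit every result: shares and sizes have no test, and a gene's p rests on a spread pooled across genes. At 182 and 139 cells, TRBV19 sums held 1174564 and 1190634 UMIs, so genes of few counts have wide errors. The count of 254 called genes became 262 with RLE size factors, 239 without a filter on low counts, 259 with a stricter filter, 271 without each mouse's largest TRBV19 clonotype and 333 with TRBV26 and TRBV23 among other cells. Without the mouse as a block for the pairing of the classes it was 8, with 1 cell per clonotype 34, without clonotypes of 10 or more cells 23, with every V gene as a class of its own 1 (Gzma), in cells without a Foxp3 UMI 148, without cells over 15000 UMIs 157, and with DESeq2 39 of the 1976 genes it gave an adjusted p. Fewer cells entered the fits on subsets; otherwise the cause was not tested.

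Counting 1 cell per clonotype, 11 of the 49 named genes changed sign: Pdcd1 (0.0065), Ifng (0.30), Il21 (0.19), Fasl (0.12), Nr4a2 (0.36), Cx3cr1 (0.064), Spp1 (0.63), Nrp1 (0.0019), Foxp3 (-0.43), Il2ra (-0.50) and Ctla4 (-0.34). Without clonotypes of 10 or more cells 11 did: Ccl5 (0.091), Ifng (0.033), Pdcd1 (0.0044), Il21 (0.035), Nr4a2 (0.039), Cx3cr1 (0.27), Spp1 (0.13), Foxp3 (-0.44), Il2ra (-0.39), Ctla4 (-0.24) and Id3 (-0.049). With every V gene as a class of its own Spp1 stood at 0.065 and Ikzf2 at 0.087. With TRBV26 and TRBV23 among other cells Id3 stood at -0.70, Cd40lg at -0.089, Ctla4 at -0.066 and Ikzf2 at 0.13. Ikzf2 also changed sign under the stricter filter (0.0032), without the largest TRBV19 clonotypes (0.10) and without cells over 15000 UMIs (0.030), where Gzma stood at -3.77. Ctla4 stood at -0.048 in cells without a Foxp3 UMI. Leaving out a mouse, the log2 difference of Sostdc1 ranged between -2.40 and 0.052.

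The mean difference in Foxp3-positive share kept its sign with at least 2 UMIs, after thinning, without the largest TRBV19 clonotypes and with TRBV26 and TRBV23 among other cells (3.17 to 10.9 percentage points), and with either mouse alone (0.79 and 9.96), but in mouse 1 it was -1.44 with at least 2 UMIs and -1.14 after thinning. It changed sign with 1 cell per clonotype (-6.14), with clonotypes weighted equally (-6.34) and without clonotypes of 10 or more cells (-6.65, chosen after seeing the data). Cells per clonotype and the share of cells in clonotypes of 2 or more kept their sign under each definition of a clonotype tried and with either mouse left out. Clonotypes per 100 cells differed by -19.6 with mouse 1 alone and 4.58 with mouse 2 alone.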
